A study of Homo sapiens with 12 samples.

Results

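The 10 genes described here encode the mRNA export receptor NXF1, its cofactor NXT1, and 8 subunits of the transcription-export complex TREX: THOC1, THOC2, THOC3, THOC5, THOC6, THOC7, ALYREF and DDX39B. They were selected by gene symbol, 10 of the 57755 gene identifiers in the tables, and NXF1 was chosen by its FPKM at 50 nM THZ1, which was high at the late times. FPKM, fragments per length of transcript and per total of mapped fragments, is a level per length within a library. The NXF1 levels at 50 nM, and every difference that uses them or the DMSO libraries, are therefore a description without a test, while the other 9 genes, called partners here, were tested.

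NXF1 and NXT1 form a heterodimer that carries spliced mRNA through the nuclear pore. TREX is loaded on mRNA during transcription, capping and splicing: the THO subcomplex (the THOC proteins) binds the RNA helicase DDX39B, also known as UAP56, and ALYREF is an adaptor that hands the mRNA to NXF1. NXF1 also makes a transcript with a retained intron, and the gene-level values used here do not tell its transcripts apart.

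The samples were KYSE510 and TE7, both established human lines of esophageal squamous cell carcinoma, with 1 library of polyadenylated RNA per line and condition (12 libraries in 6 conditions). THZ1 is a covalent inhibitor of CDK7, the kinase of the general transcription factor TFIIH, and at higher doses also inhibits CDK12 and CDK13. Each line received DMSO vehicle, 50 nM THZ1 (harvested after 2, 4, 6 or 12 h) or 200 nM THZ1 (harvested after 6 h). KYSE510 was kept in RPMI-1640 and TE7 in DMEM, so line and medium cannot be told apart. The DMSO libraries are titled 0 h while their time label reads 12 h, and there is no DMSO library at 2, 4 or 6 h, so hours of THZ1 and time in culture cannot be told apart. The labels do not say that cultures were separate, and the 2 lines stand in as replicates. The p-values of contrasts between conditions rest on how far the 2 lines disagree in their responses, each from single libraries. Those of the trend over hours rest on the scatter about each line's slope. Either spread may in part be technical.

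Upstream sequence is shown for the receptor and its cofactor because their levels parted at 50 nM. The 250 bases before the RefSeq start site are given from GRCh38.p14, 5′ to 3′ on the gene's strand. For NXF1 they are chr11:62805441-62805690 on the minus strand, and for NXT1 chr20:23350541-23350790 on the plus strand. Capitals mark TATAAA and GACGTCA in NXF1 and CCAAT in NXT1, motifs that were chosen after the sequences were seen.
NXF1: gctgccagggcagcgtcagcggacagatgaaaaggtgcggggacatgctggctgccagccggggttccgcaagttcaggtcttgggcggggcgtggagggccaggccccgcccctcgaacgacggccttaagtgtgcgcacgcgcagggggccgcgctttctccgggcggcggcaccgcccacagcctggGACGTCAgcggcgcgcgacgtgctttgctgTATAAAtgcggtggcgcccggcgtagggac
NXT1: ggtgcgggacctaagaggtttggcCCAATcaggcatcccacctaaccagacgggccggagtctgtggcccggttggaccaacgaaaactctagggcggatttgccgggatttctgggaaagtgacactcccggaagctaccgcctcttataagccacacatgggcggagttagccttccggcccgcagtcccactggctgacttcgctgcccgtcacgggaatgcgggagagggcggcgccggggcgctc

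The NXF1 window held TATAAA on the gene's strand, its first base 30 before the start, and GACGTCA, the core of the cyclic AMP response element, 60 before it. NXT1 held CCAAT 226 before its start and no TATAAA. RefSeq promoters matched 9 of the 10 genes, and THOC7 had no entry. In the 300-base windows (250 before to 50 after the start), searched on both strands, TATAAA was in 12.0% of 27305 promoters and in those of ALYREF, DDX39B and NXF1. On the gene's own strand with its first base 23 to 37 before the start it was in 2.46%, and of these 9 genes in NXF1. GACGTCA was in 3.63% of promoters (NXF1 and THOC1), CCAAT in 35.7% (ALYREF, NXT1 and THOC6) and GGGCGG, the GC box, in 44.6% (8 of the 9, all but DDX39B). These matches describe letters, not bound sites.

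In hg19, the build of the deposited tables, NXF1 (ENSG00000162231) spans 62559595 to 62573774 on chromosome 11 and NXT1 (ENSG00000132661) 23331373 to 23335414 on chromosome 20. The values are totals of a gene's transcripts. The 10 genes each stood at 1 locus, and all passed the filter of at least 1 FPKM in at least 2 libraries that left 15610 genes to test. For the 118 member values with a usable estimate, the authors' upper 95% bound lay a median 5.54% above the value (2.19% to 18.2%), which covers counting error only. The other 2 values were for ALYREF in KYSE510 at 2 and 12 h, where the table marks the estimate as failed and its bounds (0 to 7.78 and 0 to 10.1 FPKM) do not hold the listed values. The FPKM summed to 383975 to 729515 per library. Squamous markers (8 of 8, among them TP63 and KRT5) and epithelial markers (5 of 5) had medians of at least 1 FPKM in both lines. Leukocyte markers (0 of 5) did not, nor did the endothelial markers VWF and CDH5. PECAM1, also listed as an endothelial marker, had no entry under that symbol and was not measured. Of 6 fibroblast markers 1 did in each line, COL1A1 in KYSE510 and DCN in TE7, and the summed level of the 6 was 7.15 to 11.3 FPKM in KYSE510 and 3.60 to 8.11 FPKM in TE7. Medians hide low single libraries. In its lowest KYSE510 library KRT19 was at 0.852 FPKM (median 603), and KRT14 was at 2.62 FPKM (median 469). SOX2 was at 0.975 FPKM in its lowest TE7 library (median 5.53).

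In KYSE510 the libraries labelled DMSO and 200 nM stood apart from the 4 at 50 nM, and also from each other. In KYSE510, 24 genes were under 0.3 FPKM in both the library labelled DMSO and the library labelled 200 nM yet at least 8 FPKM in all 4 libraries at 50 nM, and 5 genes showed the opposite. In TE7 these counts were 1 and 0. For the DMSO library alone they were 61 and 50 in KYSE510 and 1 and 4 in TE7, and for the 200 nM library alone 54 and 35 in KYSE510 and 82 and 27 in TE7. Examples, picked after their values were seen, are PRSS21 (0.0211 and 0 FPKM against 83.3 to 87.9) and ECI2 (57.2 and 15.6 FPKM against 0.0278 to 0.0918). Log2 levels of the DMSO and 2 h libraries correlated across genes with r = 0.879 in KYSE510 and 0.976 in TE7. The DMSO and 200 nM libraries had the lowest r of each line, 0.819 in KYSE510 and 0.842 in TE7. Here the division among the KYSE510 libraries means the one between the 50 nM libraries and these 2. Differences in KYSE510 between 50 nM and the library labelled DMSO, or between 50 nM and the library labelled 200 nM, cross it; differences among its 4 libraries at 50 nM, and those in TE7, do not.

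NXF1 was higher at each later time at 50 nM in both lines. In KYSE510 NXF1 was at 20.5 FPKM with DMSO, 49.4, 74.4, 104 and 151 FPKM after 2, 4, 6 and 12 h at 50 nM, and 19.3 FPKM after 6 h at 200 nM. In TE7 NXF1 was at 46.2 FPKM with DMSO, 56.2, 94.1, 122 and 173 FPKM after 2, 4, 6 and 12 h at 50 nM, and 21.8 FPKM after 6 h at 200 nM. The order of the 50 nM libraries was the order of hours in each line, and both 200 nM libraries lay below every library at 50 nM of the same line.

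The level after 12 h was 3.06 times that after 2 h in KYSE510 and 3.08 times in TE7. This pair of differences, 1.59 and 1.61 in log2(FPKM + 1), uses no DMSO library and stays on one side of the KYSE510 division. In the same contrast 61 of the 15610 genes in KYSE510 and 146 in TE7 were at or above NXF1. Against DMSO the 12 h level was 7.35 times higher in KYSE510 and 3.74 times in TE7, with the former crossing the division. At 200 nM, NXF1 was at 0.938 of the library labelled DMSO in KYSE510 and 0.472 in TE7, and the sign of this difference depends on the scaling: its mean over both lines was -0.57 as deposited, 0.21 after median-of-ratios scaling and 0.02 after upper-quartile scaling. The NXF1 slope over hours at 50 nM was 0.214 ± 0.0391 log2 per hour (SE) in KYSE510 and 0.161 ± 0.0391 in TE7. The slopes differed by 0.0535 ± 0.0553 (SE), given without a test like the slopes. In bulk RNA, fewer cells that make a transcript and less of it per cell cannot be told apart, and FPKM is relative to the other RNA of the library.

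**Figure D1:**
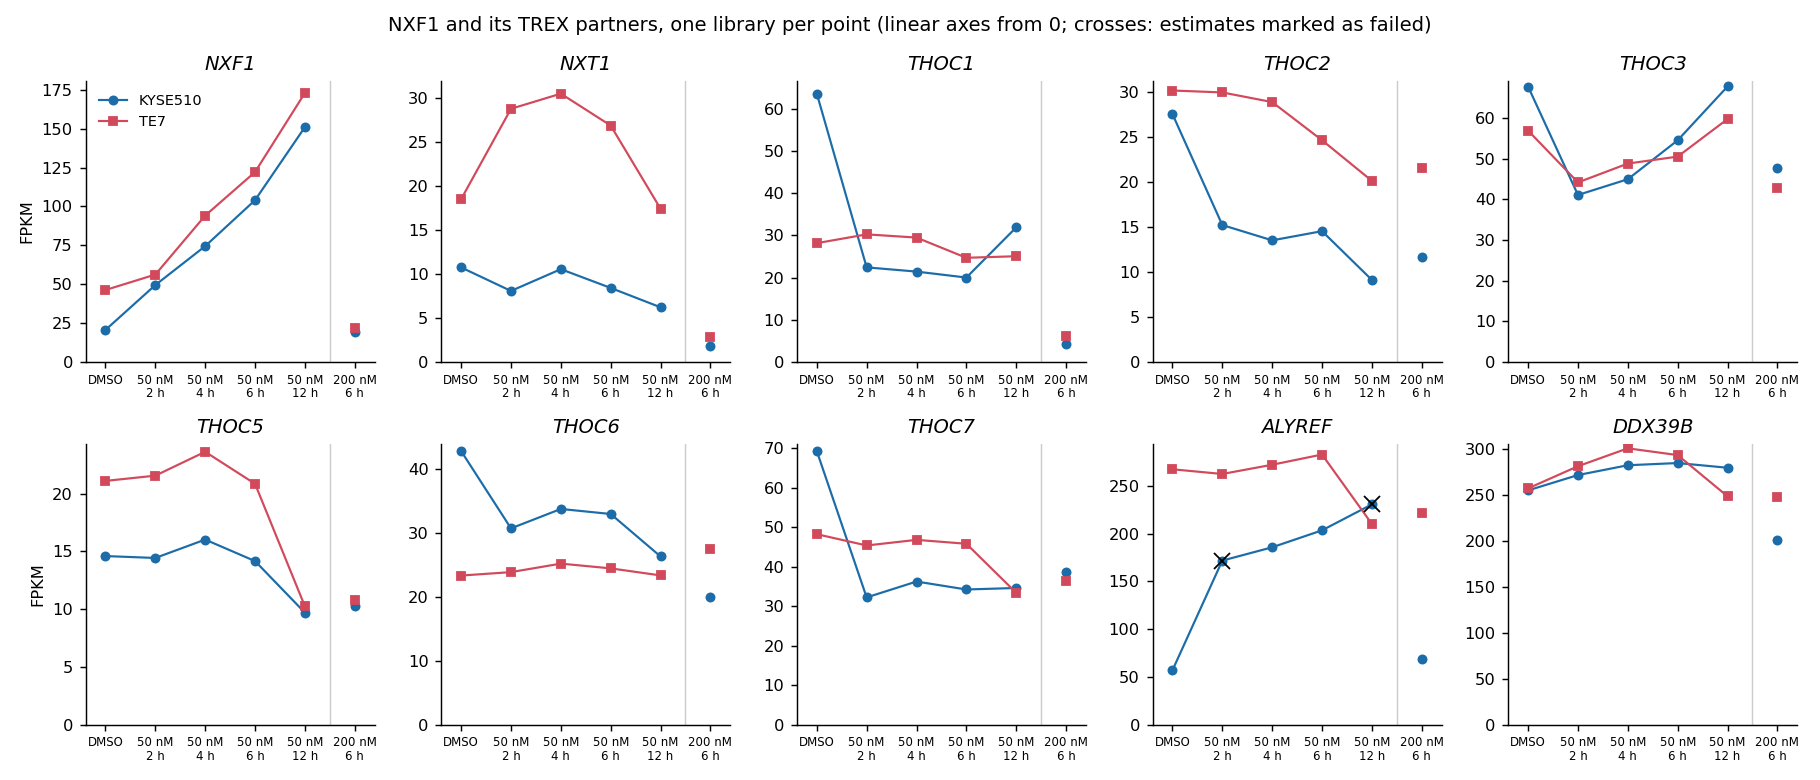
FPKM (linear axes from 0) of each gene in each of the 12 libraries, blue circles for KYSE510 and red squares for TE7, with lines joining DMSO and the 50 nM times and 200 nM set apart; crosses mark the 2 ALYREF estimates listed as failed. NXF1 reached 151 and 173 FPKM at 12 h. Of the partners THOC3 alone was also higher at each later 50 nM time in both lines. At 12 h THOC3 was near its DMSO level, while NXF1 was well above its own.

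NXT1, the small subunit of the receptor, did not follow NXF1. In KYSE510 NXT1 was at 10.7 FPKM with DMSO, 8.05, 10.5, 8.39 and 6.20 FPKM after 2, 4, 6 and 12 h at 50 nM, and 1.76 FPKM after 6 h at 200 nM. In TE7 NXT1 was at 18.5 FPKM with DMSO, 28.7, 30.4, 26.8 and 17.4 FPKM after 2, 4, 6 and 12 h at 50 nM, and 2.83 FPKM after 6 h at 200 nM. Within the 50 nM series the highest NXT1 level came at 4 h and the lowest at 12 h in both lines, and the 200 nM libraries were the lowest of each line.

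The ratio of NXF1 to NXT1 FPKM within a library, which no scaling of whole libraries changes, went from 1.92 with DMSO to 6.14, 7.07, 12.4 and 24.4 after 2, 4, 6 and 12 h in KYSE510. In TE7 it was 2.50 with DMSO and then 1.96, 3.09, 4.55 and 9.95. At 200 nM it was 11.0 in KYSE510 and 7.72 in TE7, where NXT1 was low rather than NXF1 high. Against the median of the 6 THO genes, NXF1 went from 0.386 to 5.19 in KYSE510 and from 1.58 to 7.15 in TE7 between DMSO and 12 h. After 2 h that ratio was 1.86 in both lines, and at 200 nM it was 1.22 and 0.889. These ratios hold the NXF1 level that chose the gene and are given without a test.

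**Figure D2:**
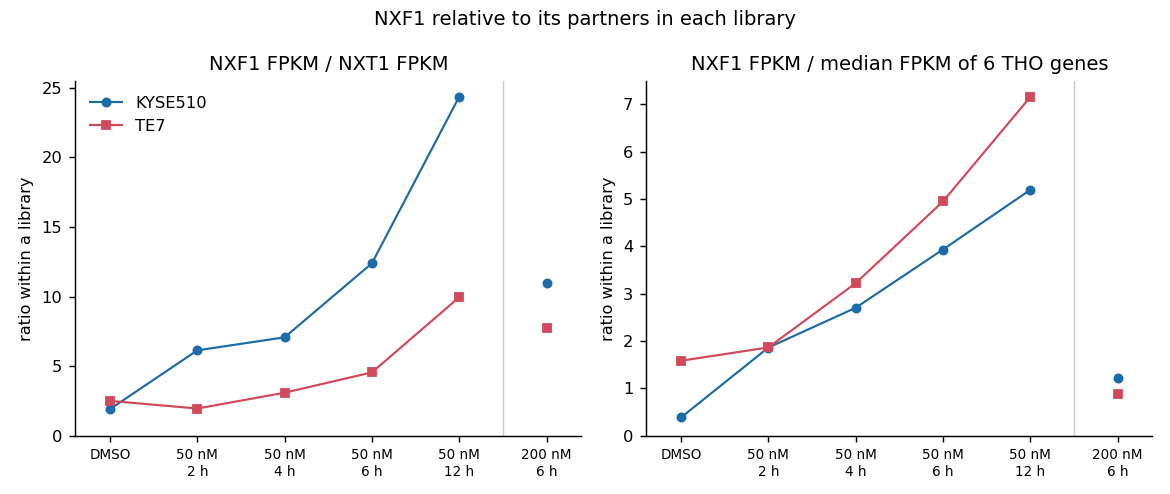
NXF1 FPKM divided by NXT1 FPKM (left) and by the median FPKM of the 6 THO genes (right) within each library, on linear axes from 0; lines join DMSO and the 50 nM times. Both ratios were highest at 12 h in each line, at 24.4 and 9.95 for NXT1 and 5.19 and 7.15 for THO.

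After 12 h at 50 nM, THOC2 and THOC5 fell among the 9 partners and none rose. THOC2, the large scaffold of THO, changed by -1.03 ± 0.26 (log2, SE, adjusted p = 0.0204), and THOC5 by -0.76 ± 0.21 (log2, SE, adjusted p = 0.0329), in limma's test with Benjamini-Hochberg adjustment over all genes. In this contrast 25.2% of all genes were called lower and 3.27% higher, so 2 lower of 9 is near the background. The median change was -0.39 for the partners and -0.42 for all genes. Neither call held after median-of-ratios or upper-quartile scaling: THOC2 was then -0.56 and -0.81, THOC5 -0.30 and -0.54, and 0 of 9 partners were called lower. Leaving out the KYSE510 libraries labelled DMSO and 200 nM, an alternative chosen after seeing the data, left the same 2 genes called. Leaving out the KYSE510 DMSO library alone, or the 12 h library of either line, left 0 of 9 called lower. THOC2 was -0.63 without the KYSE510 DMSO library, and -0.86 and -1.19 without the 12 h library of KYSE510 and TE7, and THOC5 was -0.84, -0.94 and -0.58 in the same order. Without the TE7 DMSO library 3 were (THOC1, THOC2 and THOC7) and ALYREF was called higher, and without any one library at 2, 4 or 6 h of 50 nM THOC2 alone was called.

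THOC2 was lower at 12 h than with DMSO in each line. In KYSE510 THOC2 was at 27.6 FPKM with DMSO, 15.2, 13.5, 14.6 and 9.13 FPKM after 2, 4, 6 and 12 h at 50 nM, and 11.7 FPKM after 6 h at 200 nM. In TE7 THOC2 was at 30.2 FPKM with DMSO, 30.0, 28.9, 24.7 and 20.2 FPKM after 2, 4, 6 and 12 h at 50 nM, and 21.6 FPKM after 6 h at 200 nM. The larger step in KYSE510 came between the library labelled DMSO and 2 h, across the division of that line's libraries.

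THOC5, a THO subunit of the metazoan complex, was level until 6 h and low at 12 h. In KYSE510 THOC5 was at 14.6 FPKM with DMSO, 14.4, 16.0, 14.2 and 9.69 FPKM after 2, 4, 6 and 12 h at 50 nM, and 10.2 FPKM after 6 h at 200 nM. In TE7 THOC5 was at 21.1 FPKM with DMSO, 21.6, 23.6, 20.9 and 10.2 FPKM after 2, 4, 6 and 12 h at 50 nM, and 10.8 FPKM after 6 h at 200 nM. The 12 h and 200 nM libraries were at 9.69 to 10.8 FPKM and the other 8 at 14.2 to 23.6. This grouping was made after the values were seen, and the share of all genes that part likewise was not counted. In hg19 NIPSNAP1, at 16.4 to 48.3 FPKM, overlaps THOC5 by 409 bases, and its part in the THOC5 values was not tested. From 2 to 12 h THOC5 was the 1 partner called lower, by -0.77 ± 0.21 (log2, SE, adjusted p = 0.0389), and 0 of 9 were called higher, beside 20.0% of all genes lower and 1.88% higher. Without the KYSE510 libraries labelled DMSO and 200 nM, NXT1, THOC2 and THOC5 were called lower and THOC3 higher in that contrast. Median-of-ratios scaling called 0 lower and THOC3 higher. The THOC5 call was lost without any one library at 50 nM, with no filter on low values and without the cell-line block, each leaving 0 of 9 lower. Without either DMSO library THOC2 and THOC5 were called lower and THOC3 higher, and without either 200 nM library THOC5 lower and THOC3 higher.

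In the trend over hours at 50 nM, THOC2 fell by 0.0771 ± 0.0161 (adjusted p = 0.00512) and THOC5 fell by 0.0665 ± 0.0171 (adjusted p = 0.013) log2 per hour, limma with SE. None of the 9 partners rose. Of all genes 39.1% had a falling and 6.91% a rising trend, and after median-of-ratios scaling 0 partners fell while ALYREF and DDX39B rose. Without the 12 h libraries, or without that of TE7 alone, 0 of 9 fell, and without that of KYSE510 THOC1 and THOC2 fell and ALYREF rose. Without the KYSE510 DMSO library THOC3 rose.

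At the earlier times 0 of 9 partners passed limma's test. At an unadjusted p under 0.05 there was 1 at 2 h (THOC3, lower), 0 at 4 h and 0 at 6 h, beside 10.8%, 15.8% and 22.7% of all genes. Of all genes 0.0128% were called at 2 h, 0.0769% at 4 h and 4.71% at 6 h with adjustment. Mean changes of the partners ran from -0.68 to 0.78 at 2 h and from -0.90 to 0.95 at 6 h, and the extremes were THOC1 and ALYREF, whose KYSE510 values cross the division. Without the KYSE510 libraries labelled DMSO and 200 nM, NXT1 was called higher at 4 h. Without the TE7 DMSO library THOC1 was called lower at 2 h, and THOC1 and THOC2 at 4 and 6 h.

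THOC1, whose protein binds THOC2 in THO, was low at 200 nM in both lines. In KYSE510 THOC1 was at 63.6 FPKM with DMSO, 22.4, 21.4, 20.0 and 31.9 FPKM after 2, 4, 6 and 12 h at 50 nM, and 4.17 FPKM after 6 h at 200 nM. In TE7 THOC1 was at 28.2 FPKM with DMSO, 30.3, 29.5, 24.7 and 25.1 FPKM after 2, 4, 6 and 12 h at 50 nM, and 6.26 FPKM after 6 h at 200 nM. The KYSE510 library labelled DMSO held the highest value of the 12. In hg19, THOC1 overlaps USP14, a ubiquitin protease of the proteasome, by 110 bases, and the strand setting of the counting is not given in the sources used here. USP14 was at 215 FPKM in the KYSE510 library labelled DMSO and at 15.2 FPKM at 200 nM, and at 43.3 and 25.5 FPKM in TE7. The share of fragments assigned to either gene in the overlap was not tested.

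After 6 h at 200 nM, 4 of 9 partners fell against DMSO and 0 rose, where 35.3% of all genes were called lower and 3.22% higher. The largest changes were of THOC1, -2.83 ± 0.40 (log2, SE, adjusted p = 0.00168), and NXT1, -2.22 ± 0.33 (log2, SE, adjusted p = 0.00198), both by limma. THOC1 changed by -3.64 in KYSE510 and -2.01 in TE7, and NXT1 by -2.09 in KYSE510 and -2.35 in TE7. These 2 calls held under each scaling tried and without any single library. Without the cell-line block, THOC1 alone of the 9 was called. THOC2 (-0.82 ± 0.26, adjusted p = 0.0364) and THOC5 (-0.69 ± 0.21, adjusted p = 0.036) lost their calls after median-of-ratios scaling, at -0.05 and 0.06, and the THOC5 sign turned. Without the KYSE510 DMSO library, or without any one library at 2, 4 or 6 h of 50 nM, NXT1 and THOC1 were the 2 called. Without the KYSE510 library labelled 200 nM these and THOC5 were called, and without that of TE7 these and THOC6. All genes had a median change of -0.65 in this contrast, and the partners -0.61. Among the 9186 genes with a mean of at least 5 FPKM, fitted apart, the median was -0.79 and 4163 were called lower. Without the KYSE510 libraries labelled DMSO and 200 nM, NXT1, THOC1 and THOC5 were called and the THOC2 change was -0.46.

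The 2 doses can be set side by side at 6 h. NXT1 was -2.32 ± 0.33 (log2, SE, adjusted p = 0.00281) at 200 nM minus 50 nM, and THOC1 -1.92 ± 0.40 (log2, SE, adjusted p = 0.012), and these were the 2 partners called lower in limma's test, with 0 higher. Over all genes 21.9% were called lower and 2.94% higher. NXF1, not tested, differed by -2.37 in KYSE510 and -2.43 in TE7, so the receptor and its cofactor were both low at 200 nM relative to 50 nM at the same hour. THOC1's call in this contrast was lost after median-of-ratios, upper-quartile and equal-sum scaling and without either 6 h library at 50 nM or the KYSE510 library labelled 200 nM. Its change was then -1.34, -1.38 and -1.49 in the 3 scalings, -2.08 and -1.76 without the KYSE510 and the TE7 6 h library, and -1.64. NXT1's call held under each of these but not without the cell-line block.

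**Figure D3:**
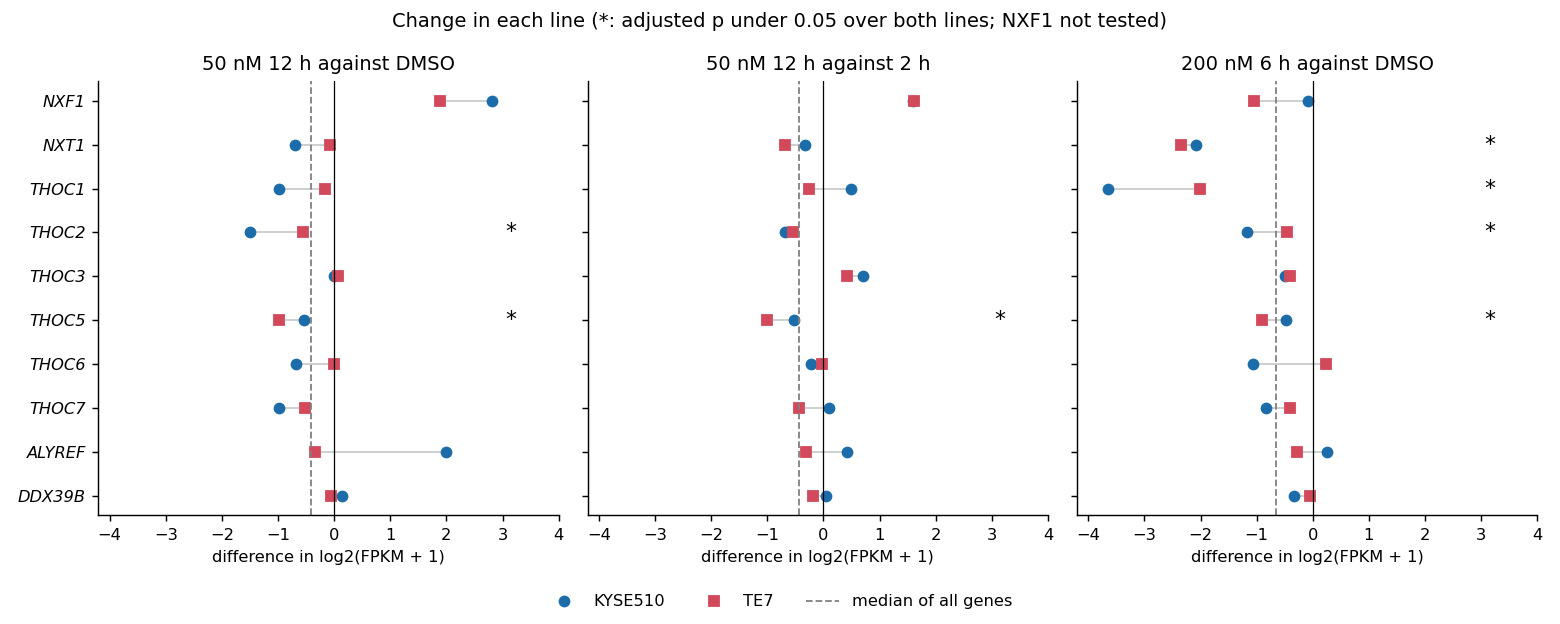
Difference in log2(FPKM + 1) of each gene (rows) in KYSE510 (blue circles) and TE7 (red squares) for 3 contrasts; the dashed line is the median of all genes over both lines (-0.42, -0.43 and -0.65) and asterisks mark adjusted p under 0.05. NXF1 lies to the right in both 12 h panels, and NXT1 and THOC1 lie farthest to the left at 200 nM.

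THOC3, a WD-repeat subunit of THO, was lowest at 2 h within the 50 nM series and highest at 12 h. In KYSE510 THOC3 was at 67.7 FPKM with DMSO, 41.1, 44.9, 54.5 and 67.8 FPKM after 2, 4, 6 and 12 h at 50 nM, and 47.8 FPKM after 6 h at 200 nM. In TE7 THOC3 was at 56.9 FPKM with DMSO, 44.2, 48.8, 50.5 and 59.8 FPKM after 2, 4, 6 and 12 h at 50 nM, and 42.8 FPKM after 6 h at 200 nM. From 2 to 12 h the change was 0.57 ± 0.17 (adjusted p = 0.051), just above the threshold of 0.05, and it passed when libraries were scaled by median-of-ratios or upper quartile, and with a pseudocount of 0.1. Against DMSO the 12 h change was 0.04 ± 0.17 (95% interval -0.36 to 0.43). Of the 10 genes THOC3 has the widest hg19 span after THOC2, 116808 bases, and the 4 other entries that overlap it are listed at 0 FPKM.

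THOC6 and THOC7 gave different pictures in the 2 lines. In KYSE510 THOC6, a WD-repeat subunit, was at 42.7 FPKM with DMSO, 30.7, 33.7, 32.9 and 26.3 FPKM after 2, 4, 6 and 12 h at 50 nM, and 19.9 FPKM after 6 h at 200 nM. In TE7 THOC6 was at 23.3 FPKM with DMSO, 23.8, 25.1, 24.4 and 23.3 FPKM after 2, 4, 6 and 12 h at 50 nM, and 27.5 FPKM after 6 h at 200 nM. The TE7 libraries thus span a factor of 1.18 and those of KYSE510 2.15, with the library labelled DMSO at the top. In hg19 HCFC1R1, at 34.1 to 65.2 FPKM, overlaps THOC6 by 260 bases, and its part in the THOC6 values was not tested. In KYSE510 THOC7 was at 69.3 FPKM with DMSO, 32.2, 36.2, 34.2 and 34.6 FPKM after 2, 4, 6 and 12 h at 50 nM, and 38.6 FPKM after 6 h at 200 nM, and in TE7 at 48.2 FPKM with DMSO, 45.3, 46.8, 45.8 and 33.4 FPKM after 2, 4, 6 and 12 h at 50 nM, and 36.3 FPKM after 6 h at 200 nM. THOC7 missed the threshold at 12 h against DMSO (-0.75 ± 0.27, adjusted p = 0.0707), and THOC6 was further from it (-0.34 ± 0.29, adjusted p = 0.411).

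ALYREF, the adaptor, was high in every TE7 library and split by the division in KYSE510. In KYSE510 ALYREF was at 56.8 FPKM with DMSO, 172, 186, 203 and 231 FPKM after 2, 4, 6 and 12 h at 50 nM, and 68.4 FPKM after 6 h at 200 nM, the 2 and 12 h values being those marked as failed. In TE7 ALYREF was at 267 FPKM with DMSO, 262, 272, 283 and 210.0 FPKM after 2, 4, 6 and 12 h at 50 nM, and 221 FPKM after 6 h at 200 nM. In KYSE510 the 4 libraries at 50 nM (171.6 to 231 FPKM) lay above the other 2, and in TE7 the 12 h library was the lowest of the 6. The changes at 12 h against DMSO were 2.00 in KYSE510 and -0.35 in TE7, with a mean of 0.83 ± 0.51 (adjusted p = 0.26, 95% interval -0.35 to 2.01). ANAPC11, a subunit of the anaphase-promoting complex that overlaps ALYREF by 797 bases in hg19, was in KYSE510 at 57.8 FPKM with DMSO, 119 to 159 FPKM at 50 nM and 47.7 FPKM at 200 nM. In TE7 ANAPC11 was at 132 FPKM with DMSO, 103, 109, 117 and 123 FPKM after 2, 4, 6 and 12 h at 50 nM, and 150.2 FPKM after 6 h at 200 nM. It was split like ALYREF in KYSE510, while in TE7 it was highest at 200 nM, where ALYREF was low. Its part in the ALYREF values was not tested. Leaving out the 2 failed estimates changed no partner call at any time or dose.

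DDX39B, the helicase, was the most even of the 10 in KYSE510. There DDX39B was at 255 FPKM with DMSO, 272, 283, 285 and 279.9 FPKM after 2, 4, 6 and 12 h at 50 nM, and 201 FPKM after 6 h at 200 nM, and in TE7 at 257 FPKM with DMSO, 282, 301, 294 and 249 FPKM after 2, 4, 6 and 12 h at 50 nM, and 248 FPKM after 6 h at 200 nM. The highest over the lowest library was 1.42 in KYSE510 and 1.22 in TE7. Its change at 12 h against DMSO was 0.04 ± 0.16 (95% interval -0.34 to 0.42), and at 200 nM -0.20 ± 0.16 (95% interval -0.58 to 0.18). After median-of-ratios scaling, which centres each library on its typical gene, DDX39B was called higher than DMSO at 12 h and at 200 nM. The ratio of NXF1 to DDX39B FPKM was 0.0805 with DMSO and 0.540 at 12 h in KYSE510, and 0.180 and 0.695 in TE7. In hg19 the entry ATP6V1G2-DDX39B covers all 12230 bases of DDX39B and was at 0.0385 to 2.94 FPKM. Its part in the DDX39B values was not tested.

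By mean FPKM over the 6 libraries of a line, the order from the top in TE7 was DDX39B (272 ± 23.5, SD, n = 6), ALYREF (253 ± 29.7), NXF1 (85.6 ± 55.7), THOC3 (50.5 ± 6.77), THOC7 (42.6 ± 6.20), THOC2 (25.9 ± 4.41), THOC6 (24.6 ± 1.59), THOC1 (24.0 ± 8.98), NXT1 (20.8 ± 10.3) and THOC5 (18.0 ± 5.91). DDX39B and ALYREF differ by less than either SD, as do the neighbours from THOC2 down, while NXF1 and THOC3 differ by less than the SD of NXF1 but more than that of THOC3. The SD is over conditions. In KYSE510 the same genes led: DDX39B (263 ± 32.0), ALYREF (153 ± 72.6), NXF1 (69.8 ± 51.4) and THOC3 (54.0 ± 11.5). NXT1 was the lowest there at 7.61 ± 3.32 FPKM. THOC7 (40.9), THOC6 (31.0), THOC1 (27.3), THOC2 (15.3) and THOC5 (13.2) lay between. Among these, THOC6 and THOC1, and THOC2 and THOC5, differed by less than either SD of the pair.

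Between the lines over all 6 conditions, 4 of 9 partners were lower in KYSE510 and 0 higher, by limma with condition terms. Of all genes 28.9% were lower and 17.5% higher. NXT1 differed by -1.21 ± 0.19 (log2, SE, adjusted p = 0.00219) and was lower in KYSE510 in all 6 conditions. THOC2 differed by -0.79 ± 0.15 (log2, SE, adjusted p = 0.00425), THOC5 by -0.37 ± 0.12 (log2, SE, adjusted p = 0.0389) and ALYREF by -0.90 ± 0.29 (log2, SE, adjusted p = 0.038). NXT1 and THOC2 kept this call under each scaling tried; ALYREF lost it after scaling to equal sums and without any one library other than those at 12 h (-0.64 without a DMSO library). THOC5 lost it under all 3 scalings and without any one library with DMSO or at 2, 4 or 6 h of 50 nM. Without one of these libraries 2 of 9 were called, and without either 200 nM library THOC6 was called higher in KYSE510. NXF1 differed by -0.37, given as a description since its levels at 50 nM chose it.

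The 2 genes beside NXF1 on chromosome 11 were lower at 12 h than with DMSO in both lines. TMEM223, a mitochondrial membrane protein gene whose end lies 101 bases from NXF1 in hg19, was in KYSE510 at 17.3 FPKM with DMSO, 18.8, 15.5, 12.4 and 3.06 FPKM after 2, 4, 6 and 12 h at 50 nM, and 3.88 FPKM after 6 h at 200 nM. In TE7 TMEM223 was at 26.8 FPKM with DMSO, 24.0, 17.7, 12.6 and 3.71 FPKM after 2, 4, 6 and 12 h at 50 nM, and 9.64 FPKM after 6 h at 200 nM. It fell by 2.37 ± 0.28 (log2, SE) at 12 h against DMSO in limma's test (adjusted p = 0.00177). STX5, a SNARE of the Golgi, lies 594 bases away on the other side. In KYSE510 STX5 was at 15.1 FPKM with DMSO, 21.9, 20.5, 17.2 and 6.25 FPKM after 2, 4, 6 and 12 h at 50 nM, and 6.65 FPKM after 6 h at 200 nM. In TE7 STX5 was at 25.0 FPKM with DMSO, 16.6, 15.0, 11.5 and 3.55 FPKM after 2, 4, 6 and 12 h at 50 nM, and 3.48 FPKM after 6 h at 200 nM. In KYSE510 it was thus above DMSO until 6 h and low at 12 h, and in TE7 below DMSO at each time. At 12 h against DMSO it fell by 1.83 ± 0.34 (adjusted p = 0.00736), a call lost without the TE7 12 h library (-1.64), while that of TMEM223 held under every alternative run. Across both sides of NXF1, then, levels at 12 h were below DMSO in each line while NXF1 was above. In this contrast 25.2% of all genes were called lower, and the median change was -0.42. Whether the lower levels are particular to this locus was not tested.

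**Figure D4:**
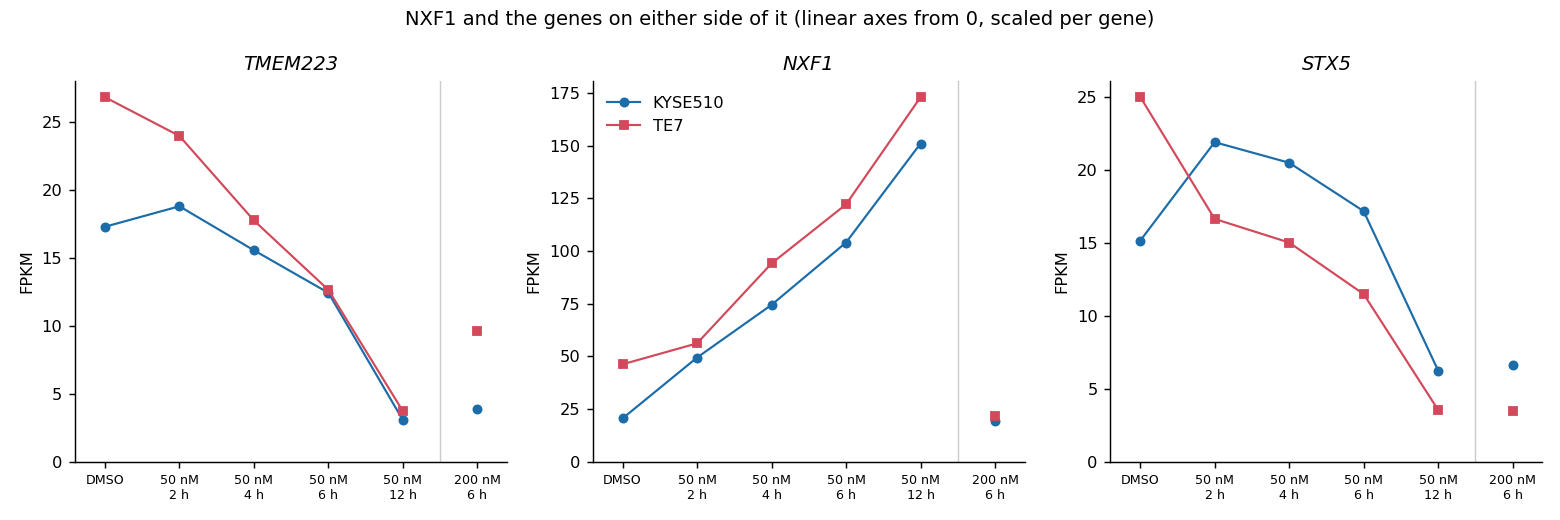
FPKM (linear axes from 0, scaled per gene) of TMEM223, NXF1 and STX5, which lie side by side on chromosome 11, in each library of KYSE510 (blue circles) and TE7 (red squares). At 12 h TMEM223 was at 3.06 and 3.71 FPKM and STX5 at 6.25 and 3.55 FPKM, below their DMSO values.

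The 6 genes whose levels were most like NXF1 were MED13, PDCD5, CRY2, ADRM1, YKT6 and POLR2A. Likeness was the smaller of the 2 within-line Pearson correlations of log2(FPKM + 1) over 6 libraries each, among 9114 genes with a mean of at least 5 FPKM, and ran from 0.983 (MED13) to 0.975 (POLR2A). MED13 is a subunit of the Mediator kinase module and POLR2A the largest subunit of RNA polymerase II. MED13 was at 8.79 FPKM with DMSO, 38.2 FPKM at 12 h and 5.66 FPKM at 200 nM in KYSE510, and at 8.81, 27.7 and 5.58 FPKM in TE7. POLR2A was at 47.2, 134 and 33.6 FPKM in KYSE510 and at 39.9, 139 and 26.7 FPKM in TE7. The choice of genes depends on the scaling: after median-of-ratios scaling the 6 were SLC16A1, VPS53, MED13, CPSF6, FAM160B1 and SSH2, of which 1 is shared. With the values as deposited the partners were far down this list, NXT1 leading them at 0.359 (rank 2112) and THOC7 last at -0.63 (rank 7361). Their ranks after median-of-ratios scaling are not given here and may differ. In a single line some were closer: ALYREF had r = 0.951 in KYSE510 but 0.0853 in TE7. The KYSE510 value uses the ALYREF estimates at 2 and 12 h that are marked as failed. DDX39B had 0.779 and 0.358, and NXT1 0.359 and 0.699. These correlations describe the 6 conditions and share their libraries, and those in KYSE510 cross the division.

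Of 53 other genes of nuclear export, most of them of mRNA export and listed by role, 48 were tested. LUZP4, NXF2, NXF2B, NXF3 and NXF5 were below 1 FPKM. The 48 include 5 exportins, among them the tRNA carrier XPOT, and 4 of these 5 are in the count of genes lower at 12 h. After 12 h at 50 nM 19 of the 48 fell and 4 rose (39.6% and 8.33%, beside 25.2% and 3.27% of all genes), with a median of -0.49 against -0.42. Median-of-ratios scaling moved this to 10 lower and 9 higher, and all genes to 12.8% lower and 9.31% higher. At 200 nM 29 fell and 1 rose, median -0.92 against -0.65, beside 35.3% and 3.22% of all genes called, and after that scaling 11 fell and 4 rose, beside 13.2% and 11.1%. Between doses at 6 h 24 were lower and 0 higher, beside 21.9% and 2.94% of all genes. From 2 to 12 h 17 fell and 2 rose, beside 20.0% and 1.88%. Of the 9186 genes with a mean of at least 5 FPKM, fitted apart, 2505 were lower at 12 h, 4163 at 200 nM and 3317 between doses. Their medians were -0.40, -0.79 and -0.68, so at 200 nM the shares of all genes are a low reference for well-expressed genes. At 2, 4 and 6 h at 50 nM 0 of 48 passed limma's test, with 3, 8 and 13 at an unadjusted p under 0.05 (6.25%, 16.7% and 27.1%, near the 10.8%, 15.8% and 22.7% of all genes). Single libraries weighed on these counts and on those of all genes, so the counts that follow are not results about this list alone. Without the TE7 12 h library 9 were lower and 2 higher at 12 h against DMSO, and without the KYSE510 12 h library 1 was higher. Without the KYSE510 DMSO library 2 were higher at 12 h, and without the TE7 DMSO library 7. Between doses 8 and 9 were lower without the 6 h library at 50 nM of KYSE510 and TE7. From 2 to 12 h 4 and 2 were lower and 0 higher without the 2 h library of KYSE510 and TE7, 6 lower and 1 higher without the TE7 12 h library, 11 lower and 1 higher without a 6 h library at 50 nM, and 1 higher without the KYSE510 12 h library or a 4 h library. Without the TE7 DMSO library 3, 4 and 4 were higher at 2, 4 and 6 h and 1 lower at 6 h, and without a 200 nM library 4 were lower and 2 higher at 6 h.

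Among the cap and exon junction links, SRRT, which joins the cap-binding complex to later steps, rose at 12 h by 2.25 ± 0.25 (log2, SE, adjusted p = 0.00144). In KYSE510 SRRT was at 47.2 FPKM with DMSO, 101, 105, 122 and 332 FPKM after 2, 4, 6 and 12 h at 50 nM, and 129.9 FPKM after 6 h at 200 nM. In TE7 SRRT was at 82.7 FPKM with DMSO, 106, 116, 129.9 and 274 FPKM after 2, 4, 6 and 12 h at 50 nM, and 124 FPKM after 6 h at 200 nM. As with NXF1, the 12 h library was the highest of each line, but SRRT was also above DMSO at 200 nM, by 1.01 ± 0.25 (log2, SE, adjusted p = 0.0149), the 1 export gene called higher there and not called without the KYSE510 library labelled 200 nM (0.90). In that role 3 of 10 fell at 12 h, near the 25.2% of all genes: MAGOHB, NCBP1 and ZC3H18 (by 1.59). The ZC3H18 call held under every alternative run, while MAGOHB and NCBP1 lost theirs without the TE7 12 h library (-0.69 and -0.59), without the TE7 DMSO library (-0.94 and -0.82) and after median-of-ratios scaling. NCBP1 also lost its call without the KYSE510 DMSO library or any one library at 4 or 6 h of 50 nM.

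Of the 7 tested adaptors and other TREX subunits, CHTOP and ZC3H11A fell at 12 h and none rose. These 28.6% are near the 25.2% of all genes called lower. CHTOP, an adaptor that binds NXF1 together with ALYREF, was in KYSE510 at 54.1 FPKM with DMSO, 46.1, 41.6, 35.6 and 12.9 FPKM after 2, 4, 6 and 12 h at 50 nM, and 8.89 FPKM after 6 h at 200 nM. In TE7 CHTOP was at 33.1 FPKM with DMSO, 41.7, 32.9, 21.7 and 6.62 FPKM after 2, 4, 6 and 12 h at 50 nM, and 5.14 FPKM after 6 h at 200 nM. The fall was -2.08 ± 0.22 (log2, SE, adjusted p = 0.00141) at 12 h and -2.47 ± 0.22 (log2, SE, adjusted p = 0.000457) at 200 nM. ZC3H11A changed by -1.55 ± 0.28 at 12 h (adjusted p = 0.00604). DDX39A, the paralog of DDX39B, changed by 1.60 in KYSE510 and -0.31 in TE7 (adjusted p = 0.256), and FYTTD1, an adaptor also called UIF, by 0.35 ± 0.24 (adjusted p = 0.306).

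Among SR and RNA-binding adaptors, which also contact NXF1, SRSF1 (-1.66 ± 0.27), SRSF3 (-1.55 ± 0.35) and RBM15B (-1.75 ± 0.29) fell at 12 h, and CPSF6, a subunit of the cleavage factor CFIm, rose by 0.76 ± 0.18 (log2, SE, adjusted p = 0.0157). The calls of SRSF1 and RBM15B held under every alternative run. CPSF6 lost its call without either 12 h library (0.68 and 0.85), and SRSF3 without the TE7 12 h or DMSO library (-1.20 and -1.18) and after median-of-ratios scaling (-1.06). At 200 nM, where 35.3% of all genes fell, 5 of these 6 fell, CPSF6 among them (-0.73 ± 0.18), whose change was 0.06 after median-of-ratios scaling. In TREX-2, which tethers genes to the pore, CETN3 (-2.12 ± 0.28) and its scaffold MCM3AP (-1.48 ± 0.28) fell at 12 h. These are 33.3% of the 6 TREX-2 genes, beside 25.2% of all genes. SHFM1, also named SEM1, rose by 0.57 ± 0.17 (adjusted p = 0.0426, limma). At 200 nM 1 of the 6 fell (16.7%, beside 35.3% of all genes). MCM3AP lost its call without the TE7 12 h library (-1.08), and SHFM1 without the KYSE510 DMSO library (0.37) or any one library at 50 nM. The NXT1 paralog NXT2 changed by 0.53 ± 0.29 at 12 h (adjusted p = 0.204) and was lower at 200 nM than at 50 nM after 6 h by -1.07 ± 0.29 (log2, SE, adjusted p = 0.0313), a call lost under all 3 scalings and without the KYSE510 library labelled 200 nM or any one library at 2 or 6 h of 50 nM.

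At the pore, 5 of 13 docking and release genes fell at 12 h and 1 rose, beside 25.2% and 3.27% of all genes. NUP62, a central-channel nucleoporin that NXF1 binds, changed by -2.08 ± 0.27 (log2, SE, adjusted p = 0.00213), GLE1 by -0.99 ± 0.18 and NUP155 by -0.96 ± 0.23. RAE1, an export factor that binds NUP98, rose by 0.97 ± 0.25 (log2, SE, adjusted p = 0.0238). NUP62 kept its call under every alternative run. After median-of-ratios scaling GLE1 (-0.52) and NUP155 (-0.48) lost theirs. NUP155 also lost it without the TE7 12 h (-0.78) or KYSE510 DMSO library (-0.70), and RAE1 without the KYSE510 12 h (0.68) or DMSO library (0.67). At 200 nM 11 of the 13 fell, beside 35.3% of all genes, RAE1 among them (-1.96 ± 0.25), so RAE1 was in KYSE510 at 47.4 FPKM with DMSO, 133 FPKM at 12 h and 12.2 FPKM at 200 nM, and in TE7 at 61.7, 86.4 and 14.2 FPKM. Of the 5 other export receptors of the exportin family, 4 fell at 12 h and 3 at 200 nM, beside 25.2% and 35.3% of all genes. At 12 h XPO7 fell by 1.97 and XPOT, which carries tRNA, by 1.49. XPOT lost its call without the TE7 12 h library (-1.31).

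**Figure D5:**
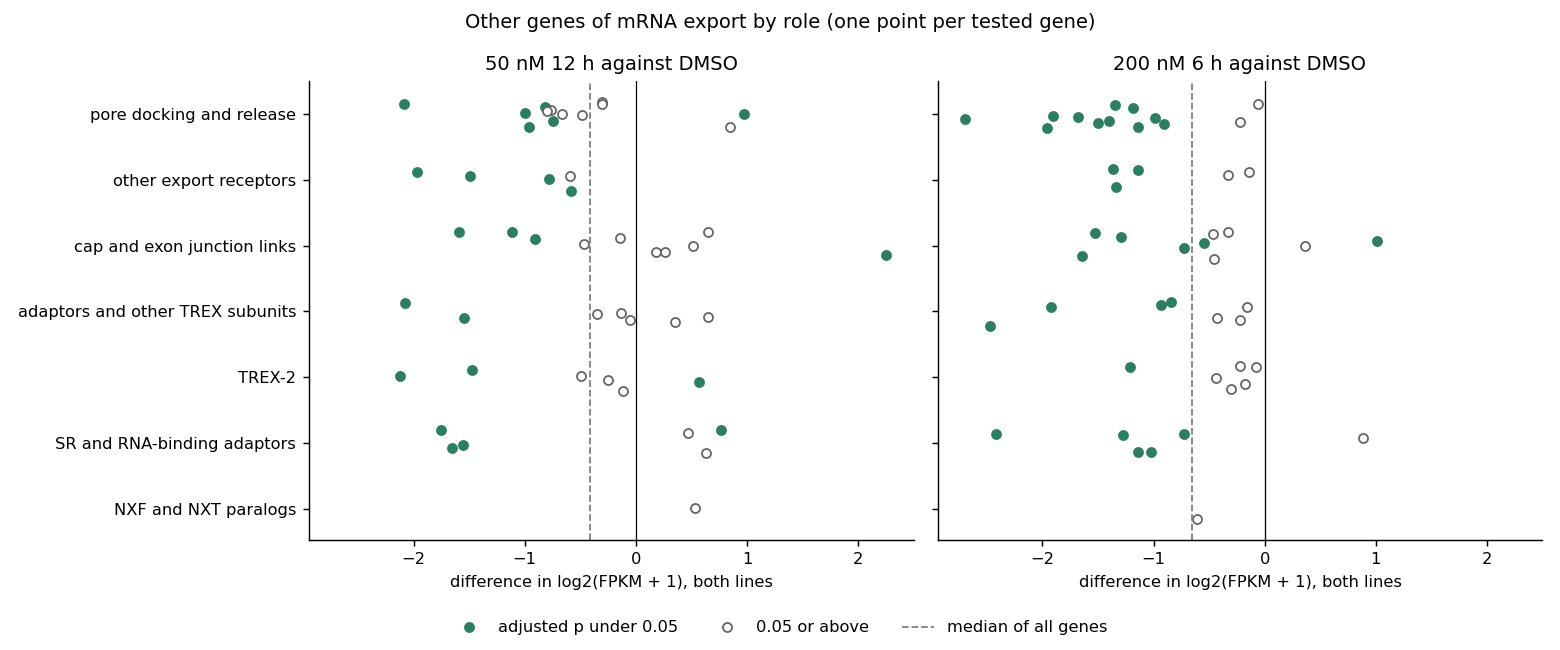
Difference in log2(FPKM + 1) over both lines of the 48 tested export genes by role, at 12 h of 50 nM (left) and 6 h of 200 nM (right), both against DMSO; filled points passed adjusted p under 0.05 and the dashed line is the median of all genes (-0.42 and -0.65). The lone filled point above 2 on the left is SRRT at 2.25, and 11 of 13 pore genes are filled and to the left at 200 nM.

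The transcripts of the 3 kinases that THZ1 binds did not share the NXF1 pattern. Few genes rose as much: at 12 h against DMSO 164 of 15610 genes in KYSE510 and 137 in TE7 were at or above NXF1. Of all genes 35.3% were called lower at 200 nM and 25.2% at 12 h, with medians of -0.65 and -0.42. CDK7 changed by -2.16 ± 0.36 (log2, SE, adjusted p = 0.00317) at 200 nM and by -0.90 ± 0.36 (adjusted p = 0.103) at 12 h, CDK12 by -1.11 ± 0.22 (log2, SE, adjusted p = 0.00969) at 12 h, and CDK13 by -1.16 ± 0.25 (log2, SE, adjusted p = 0.00848) at 200 nM, all against DMSO by limma. CDK12 lost its call without the TE7 12 h library (-0.92) and after median-of-ratios scaling, and CDK13 after median-of-ratios and upper-quartile scaling.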

How the data were processed

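The authors deposited 1 gene table per library, with Cufflinks columns that hold FPKM values and their 95% bounds per the file headers. The submitters' processing notes name STAR, Cufflinks and hg19. Versions, settings, annotation and fragment totals were not given in the sources used here, so the depth of each library is unknown. A table held 57869 lines for 57755 identifiers; the lines of the 108 that had more than 1 locus, none of them a member, were added together. The whole-series table was not used.

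Values were analysed as log2(FPKM + 1), which understates changes of low genes. The fit took the 15610 genes that reached 1 FPKM in 2 or more libraries. It used limma 3.58.1 in R 4.3.3, with condition terms, a cell-line block and variances moderated with a mean trend, on 5 residual degrees of freedom plus 2.86 from the prior. P-values were two-sided, adjusted by Benjamini-Hochberg across the whole table, and called at 0.05. The 2 libraries of a condition differ in cell line, and the block pairs the libraries of each line by design. The trend over hours used 10 libraries (DMSO as 0 h, and 50 nM) with a slope per line, on 6 residual degrees of freedom plus 2.56. The fits were tested on simulated data.

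The members, the export list, the markers, the tests and the alternatives were chosen with earlier results of these data known. The named genes were the 10 members, CDK7, CDK12 and CDK13, the 6 genes most like NXF1, and some genes overlapping or beside members. Up to 4 export genes per role were named, by the largest change at 12 h against DMSO and a mean of at least 5 FPKM. Contrasts with DMSO share its 2 libraries. Alternatives varied the pseudocount, filter, scaling, loci, variance model, block and libraries. Promoter windows came from RefSeq on GRCh38.p14 and were not placed on hg19.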

Additional observations from a re-analysis of the deposited data

Results flagged for a closer look

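THOC6 was below the library labelled DMSO in all 4 libraries at 50 nM in KYSE510 (-0.68 to -0.33 in log2(FPKM + 1), mean -0.46) and above DMSO in all 4 in TE7 (0.00138 to 0.107, mean 0.0513). The difference between the lines' mean changes, KYSE510 minus TE7, was -0.51. It rests on 1 DMSO library per line, and that of KYSE510 lies on the other side of the division among that line's libraries. This difference of mean changes was not tested; the difference between the THOC6 slopes per hour, -0.0435 ± 0.0228 (SE), did not pass limma's test (adjusted p = 0.433).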

How the results depend on the processing

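Counts below are of the 9 partners and the 48 tested export genes. The counts of all genes called moved with the settings too, so those below are not results about these genes alone. At 12 h against DMSO 3929 of 15610 genes were called lower as deposited, 2001 after median-of-ratios and 2818 after upper-quartile scaling. There were 4423 after scaling to equal sums and 1525 without the cell-line block. Contrasts without another reference are against DMSO. After median-of-ratios scaling, partners lower numbered 0 at 12 h, 0 from 2 to 12 h, 2 at 200 nM, 1 between doses and 0 in the trend, and partners higher 1 at 12 h, 1 from 2 to 12 h, 1 at 200 nM and 2 in the trend. Export genes lower were then 10 at 12 h, 8 from 2 to 12 h, 11 at 200 nM and 10 between doses, and higher 9, 6, 4 and 1, with 1 at 6 h. NXF1 at 200 nM turned to 0.21 there and to 0.0221 after upper-quartile scaling (both log2), and THOC5 at 200 nM to 0.0612 after median-of-ratios scaling, which also turned CPSF6 (0.061) and NCBP1 (0.0353) at 200 nM above 0. Upper-quartile scaling left partners lower at 0 at 12 h, 0 from 2 to 12 h, 2 at 200 nM and 1 between doses, with 1 higher from 2 to 12 h; export genes were 11 lower from 2 to 12 h, 15 at 200 nM and 9 between doses, and 3 higher at 200 nM. Scaling to equal sums gave 2, 1 and 2 partners lower at 200 nM, between doses and from 2 to 12 h, and between the lines 2 lower and 2 higher in KYSE510. Export genes were then 18, 10 and 3 lower at 200 nM, between doses and at 6 h, and 2, 1 and 1 higher at 200 nM, from 2 to 12 h and at 12 h. The cause was not tested.

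Without the replicate block, which here is the cell line, partners lower were 0 at 12 h, 0 from 2 to 12 h, 1 at 200 nM and 1 between doses. Export genes lower were then 10, 9, 19 and 12 in the same order, and 1 was higher at 12 h and 1 from 2 to 12 h. With no filter, 0 partners were lower from 2 to 12 h, and 2 export genes were higher at 12 h and 1 from 2 to 12 h. A pseudocount of 0.1 called 1 partner higher from 2 to 12 h, and one of 5 called 1 export gene higher and 2 lower at 6 h. On log2(hours + 1) 1 partner rose in the trend; without the DMSO libraries 1 rose, and without the 12 h libraries 0 fell. Without the KYSE510 DMSO library and both 200 nM libraries, and equally without the KYSE510 DMSO and 200 nM libraries (chosen after seeing the data), 3 partners were lower and 1 higher from 2 to 12 h, 1 was higher at 4 h and 1 higher in KYSE510. Export genes were then 28 lower and 7 higher from 2 to 12 h, 8 lower and 3 higher at 6 h and 1 higher at 4 h, and in the latter 2 higher at 200 nM.

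Leaving out 1 library at a time, which leaves that condition with a lone sample assumed to vary like the others, gave 0 to 3 partners lower at 12 h, 0 to 2 from 2 to 12 h, 2 to 4 at 200 nM, 1 to 3 between doses, 0 to 1 at 2 h, 0 to 2 at 4 h, 0 to 2 at 6 h, 2 to 4 between lines and 0 to 3 in the trend. Partners higher were 0 to 1 at 12 h, from 2 to 12 h, between lines and in the trend. Export genes lower were 9 to 20 at 12 h, 2 to 20 from 2 to 12 h, 24 to 29 at 200 nM, 8 to 26 between doses and 0 to 4 at 6 h. Export genes higher were 1 to 7 at 12 h, 0 to 2 from 2 to 12 h, 0 to 1 at 200 nM, 0 to 3 at 2 h and 0 to 4 at 4 and 6 h. The other alternatives (a mean of at least 5 FPKM, the highest locus, no mean trend, robust estimation, and failed estimates left out, chosen after seeing the data) kept these counts within 1.5 times. For the trend, leaving out 1 library and median-of-ratios scaling were likewise chosen after seeing the data. The depth of the libraries is unknown, and 1 library per line and condition limits the precision.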
